A study of Mus musculus with 2 samples.

Results

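Krüppel-like factors (KLFs) and receptors for sphingosine 1-phosphate (S1P) were compared between regulatory T cells (Tregs) of DNR mice, which carry TGF-beta receptor II in a dominant negative form, and Tregs of wild-type (WT) mice. The set held 9 genes, of which 7 encode KLFs (Klf2, Klf3, Klf4, Klf6, Klf7, Klf10 and Klf13) and 2 encode S1P receptors (S1pr1 and S1pr4). All probe sets that the annotation of the array gives to exactly 1 of these genes were used, which came to 25 of the 34945 probe sets with a single gene and to 9 of 18193 genes. DNR and WT mice were both on the C57BL/6 background and 10 weeks old, and CD4+Foxp3+ cells were sorted from their spleens by flow cytometry. The DNR receptor interferes with the response of a cell to the cytokine TGF-beta. The sources used here do not give the promoter that drives the receptor, the cells that carry it, the number of mice behind each RNA or the way Foxp3 was seen in living cells. Total RNA was measured on Affymetrix 3′ expression arrays, with 1 array for DNR Tregs and 1 for WT Tregs. Every difference below is therefore between a pair of RNA samples, has no replicate check, and carries no p-value.

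KLFs are zinc finger transcription factors that bind CACCC boxes and related GC-rich DNA. In T cells KLF2 is known to keep resting cells quiescent and in circulation, because it activates S1pr1 and other homing genes, and T cell receptor and PI3 kinase signals lower it. S1PR1 is the receptor by which T cells sense the S1P of blood and lymph and leave lymphoid organs, while the surface protein CD69 pulls it into the cell soon after activation.

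The 250 bases before the annotated start of 3 members are shown, because they cover both outcomes among the members: Klf2 and Klf7 had lower signals in DNR Tregs, and Klf4 had nearly equal signals in both genotypes. The promoter table, taken from RefSeq on GRCm38.p6, matched 7 of the 9 members and had no entry for Klf10 or S1pr1. Capitals mark CACCC boxes (CACCC, or GGGTG on the other strand) and, in Klf2, a palindromic match to the motif of MEF2, the factor through which the kinase ERK5 is known to induce Klf2. The positions are chr8:72318812-72319061 on the + strand for Klf2, chr1:64121390-64121639 on the - strand for Klf7 and chr4:55532476-55532725 on the - strand for Klf4, each written 5′ to 3′ on the strand of the gene.
Klf2: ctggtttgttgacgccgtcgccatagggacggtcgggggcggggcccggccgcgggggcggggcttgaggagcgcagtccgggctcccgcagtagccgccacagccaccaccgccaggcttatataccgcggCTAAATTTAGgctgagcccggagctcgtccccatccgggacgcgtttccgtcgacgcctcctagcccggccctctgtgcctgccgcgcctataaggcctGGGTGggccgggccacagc
Klf7: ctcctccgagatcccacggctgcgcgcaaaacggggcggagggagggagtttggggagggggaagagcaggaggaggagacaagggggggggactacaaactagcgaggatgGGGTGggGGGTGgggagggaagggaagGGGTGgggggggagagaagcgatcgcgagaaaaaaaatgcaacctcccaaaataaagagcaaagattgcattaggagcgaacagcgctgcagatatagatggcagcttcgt
Klf4: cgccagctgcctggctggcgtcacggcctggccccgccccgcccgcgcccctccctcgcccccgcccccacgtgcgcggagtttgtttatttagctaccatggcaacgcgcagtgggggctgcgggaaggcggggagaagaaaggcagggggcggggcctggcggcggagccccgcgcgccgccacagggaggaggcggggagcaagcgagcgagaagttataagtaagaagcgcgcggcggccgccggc
The MEF2 match of Klf2 began at position -118 and its CACCC box at position -19, counted back from the start. Klf7 had 3 CACCC boxes in this window and Klf4 had 0. Of the members not shown, Klf3 had 5, Klf13 and S1pr4, which differed little between genotypes, had 1 each, and Klf6 had 0. Of 32851 windows of this length before annotated starts, 0.508% held a MEF2 match and 52% a CACCC box. The FOXO motif GTAAACA, searched as TGTTTAC on the other strand, was in 3.17% of the windows and in 0 of the 7 windows of members. The matches did not overlap each other. They describe letters in these windows and not bound sites.

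The deposited value of a probe set is a MAS5 signal, a summary of its perfect-match and mismatch probes on a linear scale in arbitrary units. Both arrays had been scaled to the same trimmed mean of 500.0. A floor of 110.9, the higher of the arrays' medians, was set under low values, and signals below it were not ranked. The log2 ratio is that of DNR over WT. For each gene the probe set of highest mean signal stands in the text, and a difference was called by size, at 2-fold or more. Probe sets that target the same gene differ in their ratios, and this spread is the only error at hand. It holds no variation between mice, sorts or hybridisations. Over 3968 genes the robust SD of a single probe set's log2 ratio was 0.39. It was 0.56 at mean signals from the floor to 250, 0.46 from 250 to 1000, 0.32 from 1000 to 4000 and 0.25 above 4000.

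The arrays also differed in ways that touch every value. Spike-ins added at hybridisation gave a median ratio of DNR over WT of 1.95, and all 18 of their probe sets had the higher signal on the DNR array. The ratio of 3′ to 5′ signal, a sign of RNA integrity, was 6.31 for beta-actin on the DNR array, against 4.98 on the WT array, and for Gapdh it was 2.28 on the DNR array, against 2.07 on the WT array. Treg markers fitted the label: Foxp3, the lineage factor, had signals of 4550 in DNR Tregs and 3754 in WT Tregs, and 6 of 6 Treg markers and all 8 T cell markers on the array were above the floor. Of the 6 Treg markers 4 were higher and 2 lower in DNR Tregs. The lower ones were Izumo1r, by 2.03-fold (1734 in DNR Tregs and 3515 in WT Tregs), and Il2ra, by 1.16-fold. Macrophage and monocyte markers were lower on the DNR array in 11 of 11 measured cases, against 48.6% of all measured genes. Their median log2 ratio was -0.57, and their summed signals were 5202 in DNR Tregs and 7583 in WT Tregs. Their ratios ran from -1.26 for C1qa to -0.02 for C1qb, and Cd14 and Fcgr1 were under the floor on both arrays. This count rests on the probe set that stands for each gene. A dimmer probe set of Spic was above the floor in DNR Tregs alone, at 279, and a dimmer one of C1qb had a log2 ratio of 0.03. The remaining measured probe sets, of C1qb, Csf1r, Slc40a1 and Vcam1, were lower in DNR Tregs. Neutrophil markers summed to 1476 in DNR Tregs and 707 in WT Tregs. Against 4% of all measured genes, 3 of 4 measured neutrophil markers were higher by at least 2-fold. Of these, S100a8 and Ngp were above the floor in DNR Tregs alone, and Mmp9 has another probe set under the floor on both arrays. Elane was 1.38-fold lower in DNR Tregs. The other neutrophil markers on the array, S100a9, Ltf, Camp, Mmp8, Mpo and Cxcr2, were under the floor on both arrays. B cell markers summed to 1286 in DNR Tregs and 1113 in WT Tregs, and the defining B cell gene Pax5 was under the floor on both arrays. Cd79b, the only B cell marker above the floor on both arrays, had 869 in DNR Tregs and 666 in WT Tregs. Summed signals of CD8 T and NK cell markers were 1347 in DNR Tregs and 1239 in WT Tregs, of dendritic cell markers 406 in DNR Tregs and 319 in WT Tregs, of erythroid and platelet markers 335 in DNR Tregs and 586 in WT Tregs, and of endothelial and stromal markers 929 in DNR Tregs and 967 in WT Tregs. The sums of all these lists include signals under the floor, which have no order. Above the floor on both arrays were 0 of 6 dendritic cell markers and 1 of 7 erythroid and platelet markers. The same held for 1 of 10 endothelial and stromal markers and 1 of 7 B cell markers, so these sums give no amount of such cells. KLF and S1P receptor genes are also used by macrophages, B cells and endothelial cells. The part of such cells, of RNA integrity and of array brightness in the results below was not tested. In RNA from sorted cells, fewer cells of a type and less RNA per cell cannot be told apart.

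Lower signals in DNR Tregs prevailed among these genes, but most differences were small. The genes were chosen with earlier results of these data known, so their counts and median are a description and not a test. Of the 9 genes 7 had a lower signal in DNR Tregs and 2, Klf4 and Klf6, a higher one. Among all 11927 measured genes, 48.6% were lower. Klf2 was lower by at least 2-fold, which makes 1 of 9 genes, and 2.93% of measured genes were lower by that much. None of the 9 was higher by at least 2-fold, against 4% of measured genes. At 1.5-fold, 3 of the 9 were lower (Klf2, S1pr1 and Klf7), against 9.85% of measured genes. The median log2 ratio was -0.55 over the 9 genes and 0.01 over all measured genes. All 9 genes exceeded the floor on each array, so none of their ratios is a bound.

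**Figure D1:**
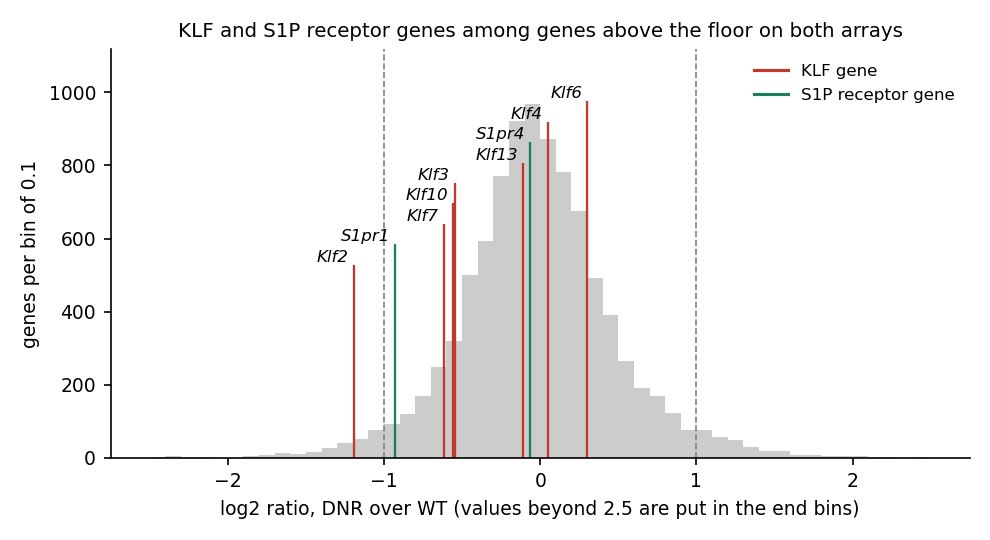
Histogram of the log2 ratio of DNR over WT for the 9281 genes above the floor on each array, in bins of 0.1, with a vertical line for each KLF gene (red) and S1P receptor gene (green) whose height has no meaning. Klf2 at -1.19 and S1pr1 at -0.93 lie in the left tail, Klf7, Klf10 and Klf3 between -0.62 and -0.55, and the other 4 genes between -0.11 and 0.30; dashed lines mark 2-fold.

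Probe set by probe set the picture was similar. Of the 25 probe sets 19 were lower in DNR Tregs and 6 higher, while 46.6% of all measured probe sets were lower. Of the 25, 4 were lower by at least 2-fold (3.09% of all measured probe sets) and 1 was higher by at least 2-fold (4.16% of them). In 17 of the 25 the difference, with low values set to the floor, was under 1.5-fold. Among these, 1442920_at and 1458487_at of Klf3 and 1456030_at of Klf13 gave bounds only, so their differences may be larger. Above the floor on both arrays were 21 probe sets, and the other 4 were above it on the WT array alone.

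**Figure D2:**
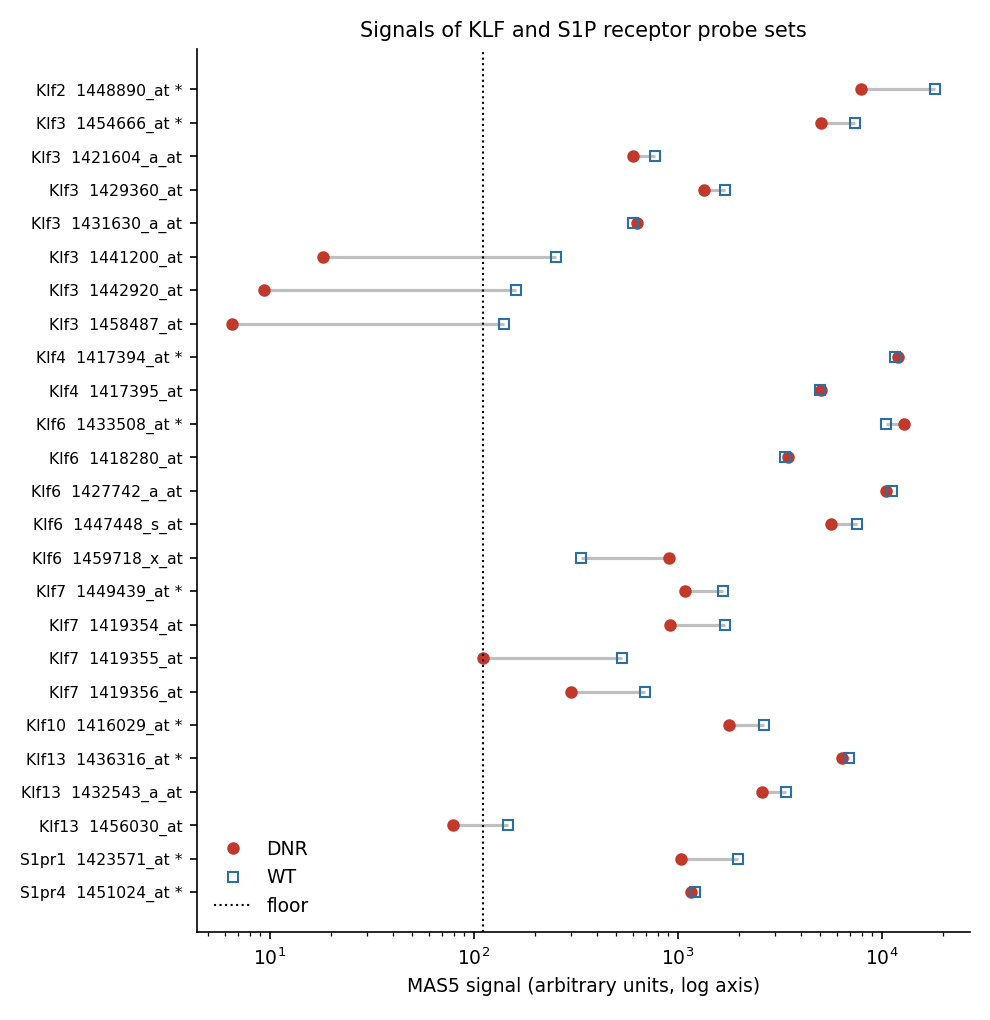
MAS5 signal (log axis, arbitrary units) of the 25 probe sets for DNR (filled red circles) and WT (open blue squares); the dotted line is the floor of 110.9 and an asterisk marks the probe set that stands for its gene. The widest gaps are those of 3 dim Klf3 probe sets whose DNR signals lie under the floor, and Klf6 has 3 probe sets to the right of their WT value and 2 to the left.

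Klf2, the KLF of quiescent and recirculating T cells, gave signals of 7929.7 in DNR Tregs and 18152 in WT Tregs. It was 2.29-fold lower in DNR Tregs, a log2 ratio of -1.19, which was the 134th lowest of the 9281 genes above the floor on each array. Klf2 has a single probe set here, so no second measurement of the same transcript can be set beside it.

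S1pr1, the egress receptor that KLF2 activates, gave signals of 1038 in DNR Tregs and 1977 in WT Tregs. It was 1.91-fold lower, a log2 ratio of -0.93, just under the 2-fold threshold. Of the 9281 genes 3.42% had a ratio as low or lower. This gene too has a single probe set. S1pr4, a receptor of lymphocytes that is not known as the main egress receptor, gave 1157 in DNR Tregs and 1211 in WT Tregs. At 1.05-fold, its difference was smaller than the disagreement between probe sets, and its log2 ratio was -0.07.

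Klf7, known for its role in neurons and fat cell precursors, was lower in DNR Tregs on all 4 of its probe sets. The probe set that stands for the gene, 1449439_at, gave 1081 in DNR Tregs and 1659.6 in WT Tregs, 1.53-fold lower. Probe set 1419354_at had 919 in DNR Tregs and 1708 in WT Tregs, 1.86-fold lower. The remaining pair were lower by more than 2-fold, though at weaker signals: 1419356_at had 298 in DNR Tregs and 693 in WT Tregs, 2.32-fold lower. Probe set 1419355_at had 111.3 in DNR Tregs, at the floor, and 532 in WT Tregs, 4.78-fold lower. The 4 probe sets are annotated with the same accession, so they share a source and are not independent of each other. The gene's ratio depended on the choice among them: by the median over the 4, Klf7 was at -1.06 and past 2-fold. Among the 594 genes for which 4 or more probe sets exceeded the floor on each array, 10.9% were lower on all of them.

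Klf3, a repressor that recruits the corepressor CtBP and is itself a target of other KLFs, had 7 probe sets. The probe set that stands for it gave 5028 in DNR Tregs and 7350.4 in WT Tregs, 1.46-fold lower. Of the other probe sets above the floor on each array, 1429360_at had 1343 in DNR Tregs and 1705 in WT Tregs, and 1421604_a_at had 601 in DNR Tregs and 774 in WT Tregs, each lower by under 1.5-fold. Probe set 1431630_a_at was nearly equal, with 631 in DNR Tregs and 601 in WT Tregs. The well-measured probe sets of Klf3 thus gave log2 ratios from -0.55 to 0.07.

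The other 3 probe sets of Klf3 were above the floor in WT Tregs alone. Their signals were 18.1 in DNR Tregs and 252.6 in WT Tregs (1441200_at), 9.37 in DNR Tregs and 162 in WT Tregs (1442920_at), and 6.54 in DNR Tregs and 140.4 in WT Tregs (1458487_at). As values under the floor have no order, only bounds hold: at least 2.28-fold, 1.46-fold and 1.27-fold lower. Of 4258 probe sets with WT signals from 140.0 to 260, a range chosen after these values were seen, 25.1% had a DNR signal under the floor and 4.67% a DNR signal more than 10 times lower than the WT signal. The opposite was more frequent: of 5682 probe sets with DNR signals in that range, 8.48% had a WT signal more than 10 times lower. Which transcripts these dim probe sets read is not known here, and the brighter probe sets of the gene did not show a difference of that size.

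Klf10, also known as TGF-beta inducible early gene, is a transcription factor that TGF-beta induces and that takes part in the control of Foxp3. Its signal was 1789 in DNR Tregs and 2635 in WT Tregs. It was 1.47-fold lower in DNR Tregs, a log2 ratio of -0.56, on a single probe set. Of the genes above the floor on each array, 11.0% had a ratio as low or lower.

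Klf13, which activates Ccl5 late in T cell activation, differed little. The probe set that stands for it gave 6360.1 in DNR Tregs and 6878 in WT Tregs, 1.08-fold lower. Probe set 1432543_a_at had 2597 in DNR Tregs and 3380.2 in WT Tregs, 1.30-fold lower, and 1456030_at was above the floor in WT Tregs alone, with 78.8 in DNR Tregs and 147 in WT Tregs, at least 1.32-fold lower.

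Klf4, a KLF that restrains the division of naive CD8 T cells and is prominent in monocytes, was nearly equal in both genotypes. It had signals of 12000.4 in DNR Tregs and 11608 in WT Tregs on the probe set that stands for it, and 5056 in DNR Tregs and 4962 in WT Tregs on 1417395_at. The log2 ratios of 0.05 and 0.03 differed by less than the disagreement between probe sets. Both probe sets are annotated with the same accession.

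Klf6, a widely expressed KLF, had 5 probe sets, of which 3 were higher and 2 lower in DNR Tregs. The probe set that stands for it had 12849 in DNR Tregs and 10446.5 in WT Tregs, 1.23-fold higher. Probe set 1418280_at had 3451 in DNR Tregs and 3359.7 in WT Tregs, and 1427742_a_at had 10432 in DNR Tregs and 11248 in WT Tregs, 1.03-fold higher and 1.08-fold lower. The last pair are annotated with 1 accession and can bind several transcripts. Of these, 1447448_s_at was 1.34-fold lower (5631 in DNR Tregs and 7524 in WT Tregs), while 1459718_x_at was 2.70-fold higher (909.95 in DNR Tregs and 336 in WT Tregs). No direction can be given for Klf6 from these arrays.

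**Figure D3:**
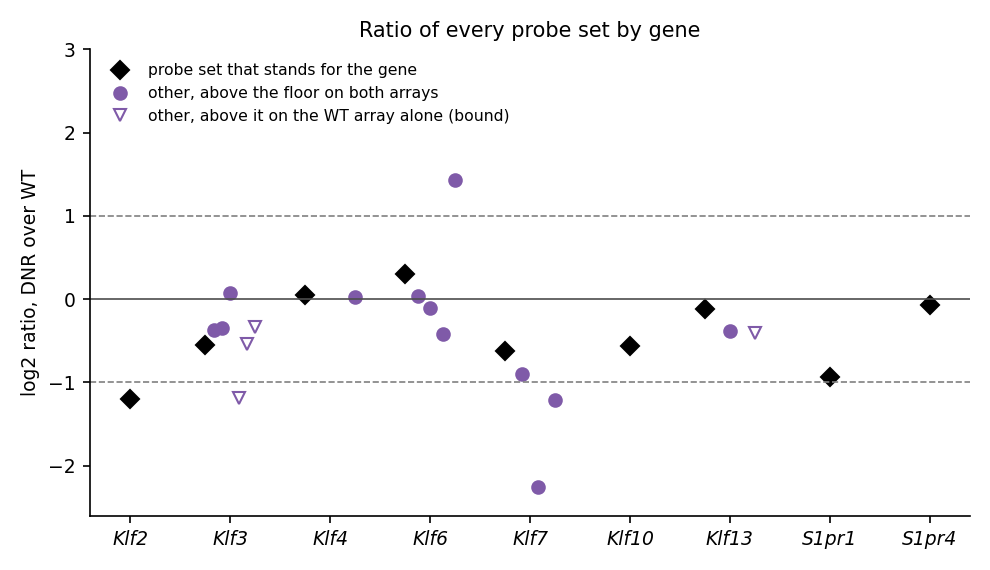
Log2 ratio of DNR over WT of each probe set, grouped by gene; black diamonds are the probe sets that stand for the gene, purple circles other probe sets above the floor on each array, and open triangles bounds. All 4 probe sets of Klf7 lie below 0, both of Klf4 lie at 0.05 or less above it, and those of Klf6 run from -0.42 to 1.44; dashed lines mark 2-fold.

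The other S1P receptor genes had weak signals. S1pr2, which couples to the inhibition of migration, had 228 in DNR Tregs and 269.8 in WT Tregs, and its other probe set was above the floor in WT Tregs alone, at 213. S1pr3 was above the floor in WT Tregs alone, at 116, and S1pr5, the egress receptor of NK cells, was under the floor on both arrays. Of the 3 genes only S1pr2 has a ratio that is not a bound, 1.18-fold lower. Of 13 measured genes of S1P synthesis, breakdown and export 9 were lower and 4 higher in DNR Tregs, with a median log2 ratio of -0.15. Among all measured genes 48.6% were lower. Of these 13, 10 were above the floor on each array, all with differences under 2-fold, and 3 (Sphk1, Spns2 and Plpp3) have bounds only. Sgpl1, the lyase that degrades S1P, had 537 in DNR Tregs and 529 in WT Tregs. Sphk1, a kinase that makes S1P, was above the floor in DNR Tregs alone, at 126.

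Genes that act on or below S1P receptors were also within 2-fold in all 16 measured cases, on the probe set that stands for each gene. Of the 16, 9 were lower and 7 higher in DNR Tregs, with a median log2 ratio of -0.05. Among all measured genes 48.6% were lower. A dimmer probe set of Dock2 had a log2 ratio of 1.12 (883 in DNR Tregs and 406 in WT Tregs). A dimmer probe set of Stat3 was above the floor in DNR Tregs alone, at 398, a log2 ratio of at least 1.84. The probe sets that stand for Dock2 and Stat3 had -0.08 and 0.22. Cd69, whose product removes S1PR1 from the cell surface, was nearly equal, with 30909 in DNR Tregs and 31222 in WT Tregs. Gnai2, the inhibitory G protein subunit through which S1PR1 signals, had 9551 in DNR Tregs and 7493 in WT Tregs, 1.27-fold higher, but its other probe set had a log2 ratio of 0.06. Rgs1, which dampens such G protein signals, was 1.20-fold lower (14884 in DNR Tregs and 17877 in WT Tregs).

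Among regulators known to act upstream of Klf2, 8 of 13 measured genes were lower in DNR Tregs, 1 of them by at least 2-fold, and 0 were higher by at least 2-fold. Of all measured genes 48.6% were lower, 2.93% were lower by at least 2-fold and 4% were higher by at least 2-fold. Foxo1, which activates Klf2 and S1pr1 in T cells, had a log2 ratio of -0.58, with 4167 in DNR Tregs and 6242 in WT Tregs, and its other measured probe sets were at -0.35 and -0.64. Foxo3 was 1.27-fold lower, while its other measured probe set was nearly equal (1369 in DNR Tregs and 1406 in WT Tregs). Map2k5 and Mapk7, which encode the kinase MEK5 and its target ERK5, were higher by 1.37-fold and 1.15-fold, but the other probe set of Map2k5 above the floor on each array was lower, with a log2 ratio of -0.13 (609 in DNR Tregs and 664 in WT Tregs). Mef2d was nearly equal (2963 in DNR Tregs and 2793 in WT Tregs), though a dimmer probe set of it, 1437300_at, had 31.4 in DNR Tregs and 602 in WT Tregs. Another dim Mef2d probe set had a log2 ratio of 0.45. Mef2a was 1.33-fold lower (1372 in DNR Tregs and 1819 in WT Tregs). Its other probe sets above the floor on each array had log2 ratios from -1.02 to -0.15. Mef2c was under the floor on both arrays. Smurf1, a ubiquitin ligase reported to act on KLF2 protein as well as on SMADs, was 4.62-fold lower, with a DNR signal of 135 near the floor against 622 in WT Tregs. The other probe set of Smurf1 was under the floor on both arrays.

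The list of genes that KLF2 is known to regulate in T cells mixes genes it induces with genes it restrains, so its counts and median have no direction of their own to be read against. Of 12 measured genes, S1pr1 included, 3 were lower and 9 higher in DNR Tregs, with a median log2 ratio of 0.08. Among all measured genes 48.6% were lower. Ccr7 was the 1 gene of the 12 lower by at least 2-fold, against 2.93% of all measured genes. Higher by that much were 2 of the 12, Cxcr3 and Prdm1, against 4% of all measured genes. Without S1pr1 the median was 0.10 over 11 genes. Ccr7, a homing receptor of naive and central T cells, had 4627 in DNR Tregs and 11433 in WT Tregs, 2.47-fold lower. Cxcr3, a chemokine receptor known to be raised in T cells that lack KLF2, had 5954 in DNR Tregs and 1779.9 in WT Tregs, 3.35-fold higher. Prdm1, which encodes the effector regulator Blimp-1, was 2.49-fold higher (689.8 in DNR Tregs and 277 in WT Tregs). The cell cycle inhibitor gene Cdkn1a, known to be induced by KLF2, was nearly equal, with 842 in DNR Tregs and 810.1 in WT Tregs, as was Itgb7, an integrin chain for homing to the gut (4419 in DNR Tregs and 4318 in WT Tregs). Myc, which KLF2 is known to restrain, had 2482 in DNR Tregs and 2389.6 in WT Tregs.

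**Figure D4:**
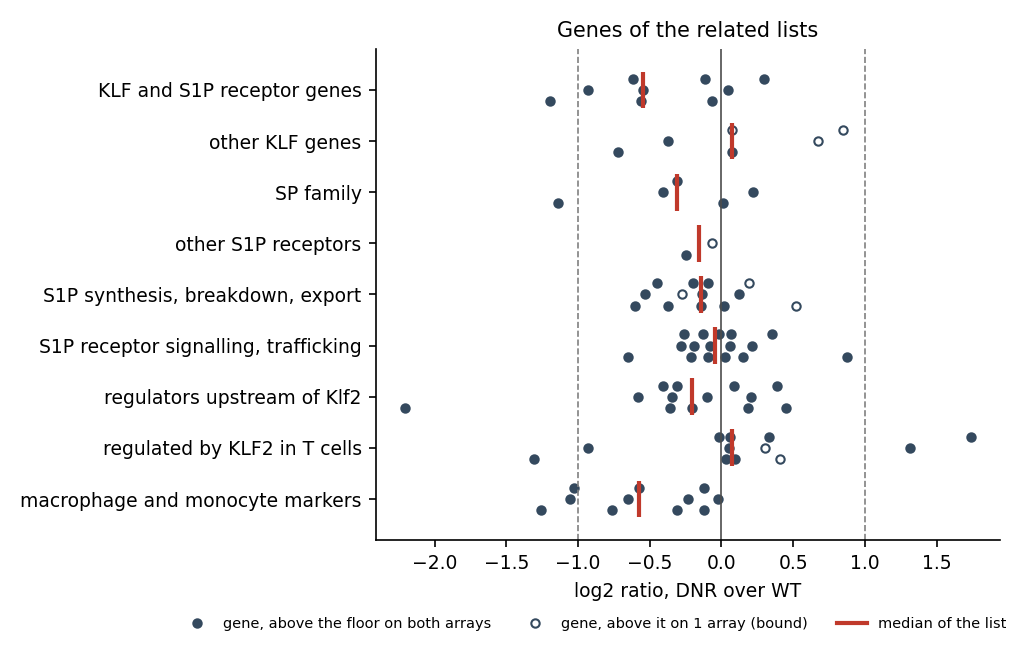
Log2 ratio of DNR over WT of each measured gene (points; open points are above the floor on 1 array and are bounds) in the KLF and S1P receptor set, in related lists and among macrophage and monocyte markers, with the median of each list as a red bar. The set has a median of -0.55 and the macrophage markers one of -0.57, while the S1P pathway lists lie at -0.16 to -0.05 and the genes regulated by KLF2 at 0.08 with members on both sides; dashed lines mark 2-fold.

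The ratios of the 9 genes kept their sign under other floors, scalings and choices of probe set. The other floors could not move them, because the probe sets that stand for these genes lay well above every floor. Leaving out probe sets that can bind several transcripts could not either, because it removed none of those that stand for a gene. Klf2, Klf10, S1pr1 and S1pr4 have a single probe set, so only the scalings could move them. Klf2 lay between -1.25 and -1.18 and S1pr1 between -0.93 and -0.89 in all settings run. Klf7 moved most, between -1.06 and -0.58, because of the choice among its probe sets.

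**Figure D5:**
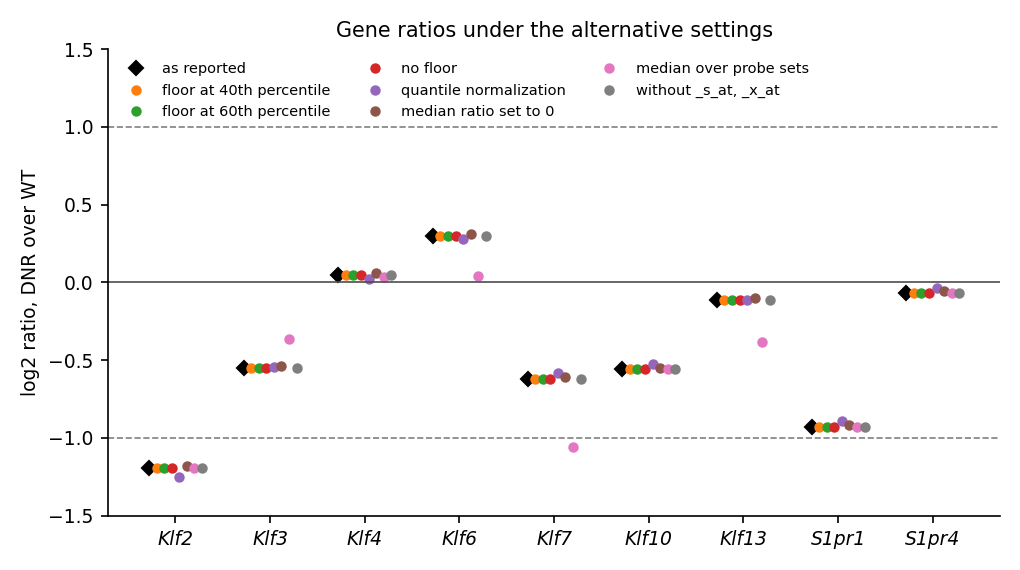
Log2 ratio of DNR over WT of the 9 genes as reported (black diamonds) and under 7 alternative settings (coloured points). Each gene keeps its side of 0; the median over probe sets moves Klf7 past 2-fold to -1.06 and brings Klf6 to 0.04.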

How the data were processed

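Per the submitters' processing notes the authors made the deposited values with MAS5, as linear signal intensities, 1 for each probe set of each array. The scaling target and software version are not stated in those notes. The mean without the top and bottom 2% of values was 500.0 on either array, which shows a scaling to a shared mean before deposition. Such scaling multiplies background together with signal. Of 45101 probe sets 64 controls were set aside. An annotation of the platform gave exactly 1 gene to 34945 of the other 45037, and 10092 were left unnamed. Values under the floor of 110.9 were set to it, log2 ratios of DNR over WT were taken, and no test was made, since there was 1 array per genotype. Genes whose probe set exceeded the floor on either array counted as measured (11927 genes). Genes were named from the members and from lists of related genes and cell markers. The members and lists were chosen with earlier results of these data known. Alternatives were other floors (the 40th and 60th percentile, none), quantile normalization, centring of the ratios, the median over probe sets, the omission of probe sets that can bind several transcripts, and thresholds of 1.5-fold and 3-fold. Precision is limited by the number of arrays. The procedure was tested on simulated data. Python 3.11.15, pandas 2.3.3 and NumPy 2.4.6 were used.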

Additional observations from a re-analysis of the deposited data

How the results depend on the processing

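With 1 array per genotype no replicate could be left out. No paired analysis was possible because each genotype had 1 array. The ratios of all 9 genes kept their sign under the 7 alternative floors, scalings and probe set choices, several of which could not move them. For Klf4, Klf13 and S1pr4 the reported ratio was smaller than the disagreement between probe sets, and the probe sets of Klf6 went both ways. The kept sign therefore gives no direction for these genes. The number of the 9 genes lower by at least 2-fold was 1 as reported, 2 with the median over all probe sets of a gene (Klf2 and Klf7), 3 at a threshold of 1.5-fold and 0 at 3-fold, while 0 were higher in any of these settings. The median log2 ratio of the 9 genes ran from -0.55 to -0.38, the value with the median over probe sets. Over all genes the numbers at least 2-fold lower and higher in DNR Tregs were 350 and 477 as reported, 550 and 1026 for a floor at percentile 40, 246 and 250 at percentile 60, and 2655 and 3617 once the floor was removed. Signals near the floor limit what can be said of the dim probe sets of Klf3, Klf7 and Klf13.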

Other observations

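KLF and SP genes outside the set were examined as well, since these families share a zinc finger domain that binds the same kind of DNA. Of 11 other KLF genes 6 were measured, and the 3 of them above the floor on each array differed by less than 2-fold. Klf9 had signals of 3279 in DNR and 3112 in WT Tregs, and its other measured probe sets had log2 ratios from -0.80 to 0.02. Klf11, a relative of Klf10 that TGF-beta also induces, was 1.29-fold lower in DNR Tregs (746 in DNR and 964 in WT Tregs), and Klf16 was 1.65-fold lower (292 in DNR and 481 in WT Tregs). Klf1, Klf5 and Klf12 were above the floor in DNR Tregs alone, at 116, 177 and 199.7, so their differences are bounds of at least 1.05-fold, 1.59-fold and 1.80-fold. Klf14, Klf15 and Klf17 were under the floor on both arrays.

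Of 9 SP genes 5 were measured, 3 of them lower and 2 higher in DNR Tregs, while 48.6% of all measured genes were lower. Sp1 was 1.24-fold lower in DNR Tregs on the probe set that stands for it (3453 in DNR and 4278 in WT Tregs) and higher on another, which had 2390.2 in DNR and 1606 in WT Tregs. Sp3 was 1.32-fold lower (3361 in DNR and 4454 in WT Tregs). Sp6 was 2.20-fold lower at weak signals, with 241 in DNR and 531 in WT Tregs, and a second measured probe set had a log2 ratio of -0.33. Sp4 was 1.17-fold higher (689 in DNR and 591 in WT Tregs), but its other probe set was above the floor in WT Tregs alone, at 179. Sp7 was nearly equal, with 153 in DNR and 152 in WT Tregs.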
